A study of Mus musculus with 8 samples.

Results

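The vomeronasal epithelium replaces its sensory neurons throughout adult life. New neurons come from basal and marginal progenitors, pass through a short phase of proneural transcription factor expression, grow axons as immature neurons and then take on the signalling machinery of the mature neuron. This report follows 9 genes that mark those steps, chosen from a list of known stage genes and matched to the count files by Ensembl identifier and GENCODE M21 symbol. All 9 were found among the 48831 genes of the files. The rule for choosing them uses no measured value, although it was set with earlier results of these data known. In order of stage they are Sox2 and Trp63 (stem and basal cells), Mki67 and Top2a (dividing cells), Neurog1 and Neurod1 (neuronal progenitors), Gap43 and Stmn2 (immature neurons) and Omp (mature neurons).

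Whole vomeronasal epithelium of C57BL/6J mice aged 8 weeks was sequenced in 8 libraries, 2 in each of 4 groups. The groups are female and male non-flushed pools, each library holding tissue of 2 mice, and female and male flushed libraries, each made from 1 mouse. No group carries a transgene or a mutation, per the labels. A protocol text common to all labels mentions a heparin flush, whereas 4 libraries are described as non-flushed; the grouping follows the per-library wording. Preparation, the number of mice in a library and the sequencing run named in the file headers differ together, so that their parts in any difference between flushed libraries and pools cannot be told apart. The series title concerns vomeronasal receptor genes, and the comparisons here ask whether the stage genes differed between preparations and between sexes.

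Sox2 encodes a transcription factor of neural stem cells that supporting cells also keep, and Trp63 encodes p63, a transcription factor of basal epithelial cells. Mki67 encodes the Ki-67 antigen, present in all active phases of the cell cycle, and Top2a the DNA topoisomerase that untangles chromosomes before mitosis. Neurog1 and Neurod1 encode basic helix-loop-helix factors that act one after the other as a progenitor becomes a neuron. Gap43 encodes a growth cone protein, Stmn2 a microtubule regulator of growing axons, and Omp the olfactory marker protein, a small cytosolic protein of mature olfactory and vomeronasal neurons. None of the 9 is restricted to the neuronal lineage in every tissue. In whole tissue, fewer cells of a type and less RNA per cell cannot be told apart.

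The promoters of the dividing-cell genes are shown because genes of this class moved in one direction below. Of the 9 genes, 5 had an entry in the RefSeq promoter table (build GRCm38.p6). The 250 bases before the RefSeq start of Mki67 (chr7:135716380-135716629, minus strand) and of Top2a (chr11:99024190-99024439, minus strand) read as follows, 5′ to 3′. Capitals mark the CCAAT box (CCAAT, or ATTGG on the other strand) and the core of the cell cycle genes homology region (TTTGAA, or TTCAAA on the other strand), and no match overlapped another.
Mki67: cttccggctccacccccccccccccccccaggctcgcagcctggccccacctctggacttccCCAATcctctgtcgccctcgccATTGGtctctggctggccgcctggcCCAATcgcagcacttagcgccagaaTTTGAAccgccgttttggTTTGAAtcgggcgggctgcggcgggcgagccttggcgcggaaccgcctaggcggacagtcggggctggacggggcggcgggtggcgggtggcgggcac
Top2a: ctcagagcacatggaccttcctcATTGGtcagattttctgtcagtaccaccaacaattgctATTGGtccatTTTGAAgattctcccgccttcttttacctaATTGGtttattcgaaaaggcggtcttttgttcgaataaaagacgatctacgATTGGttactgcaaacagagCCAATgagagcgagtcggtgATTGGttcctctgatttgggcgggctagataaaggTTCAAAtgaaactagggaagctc
The Mki67 window held 3 CCAAT boxes and 2 homology region cores, and the Top2a window held 6 and 2. Over all 32851 promoters of the table, 33.85% of windows of this length held at least 1 CCAAT box, 15.99% at least 1 core and 5.55% both. A list of 26 dividing-cell genes, described below, had 22 genes with 23 windows in the table. Of these windows 86.96% held a CCAAT box and 39.13% held both. Counted by gene, 19 and 9 of the 22 did, beside 10133 and 1744 of all 27025 genes. The Sox2 and Neurog1 windows held 1 CCAAT box each and no core, and the Neurod1 window held neither. These are matches of letters in a window and not shown to be bound sites.

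Levels are given as CPM, the count relative to the library size after TMM scaling, and between genes as RPKM, which also divides by exon length in kilobases. Total counts ranged from 18763557 to 24965088 per library. Omp was the most abundant of the 9 in RPKM, at 184.7 ± 22.1 (SD, n = 8 libraries). It was followed by Sox2 at 22.6 ± 5.72, Gap43 at 7.80 ± 2.15, Stmn2 at 4.67 ± 0.587, Mki67 at 4.35 ± 1.71, Top2a at 3.68 ± 0.779 and Trp63 at 2.52 ± 0.808. Neurod1 averaged 0.296 ± 0.0864 and Neurog1 0.106 ± 0.0607. The ranges of Omp and Sox2 each lay above that of the gene next in order, and the range of Trp63 lay above that of Neurod1. Gap43 exceeded Stmn2 in all 8 libraries although their ranges overlapped. Stmn2 and Mki67 were not separated, with Stmn2 higher in 5 of 8 libraries, and Mki67 exceeded Top2a in 5 of 8. The mature neuron gene was thus recorded at 8.17 times the mean RPKM of Sox2, and the progenitor factors lay lowest.

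Across all genes, 9377 of the 20601 tested (45.5%) differed between flushed libraries and pools by edgeR's quasi-likelihood test at an adjusted p under 0.05, with 22.6% higher and 22.9% lower in flushed libraries. With library sizes taken over mature neuron genes only, 4842 were higher and 2524 lower. Of the 9 stage genes, 8 passed the filter on low counts and 4 of these 8 differed, so the share as counted was near that of all genes. Trp63 was higher in flushed libraries, and Sox2, Mki67 and Gap43 were lower. Top2a, Neurod1, Stmn2 and Omp did not pass the test, and Neurog1 was too low to be tested. These differences moved with GC content: the median log2 value was 0.505 in the fifth of genes with the lowest GC content and -0.357 in the fifth with the highest. For each stage gene whose call changed, and for the counts of each list, the value after a correction for GC content and exon length is therefore given too. Under that correction 22.1% of all genes differed, 10.7% higher and 11.4% lower. Beside that share, 5 of the 8 stage genes tested differed under it. Trp63 was higher, Sox2, Mki67, Top2a and Stmn2 were lower, and Gap43 no longer passed. The shares over all genes are the background for the list counts below.

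**Figure D1:**
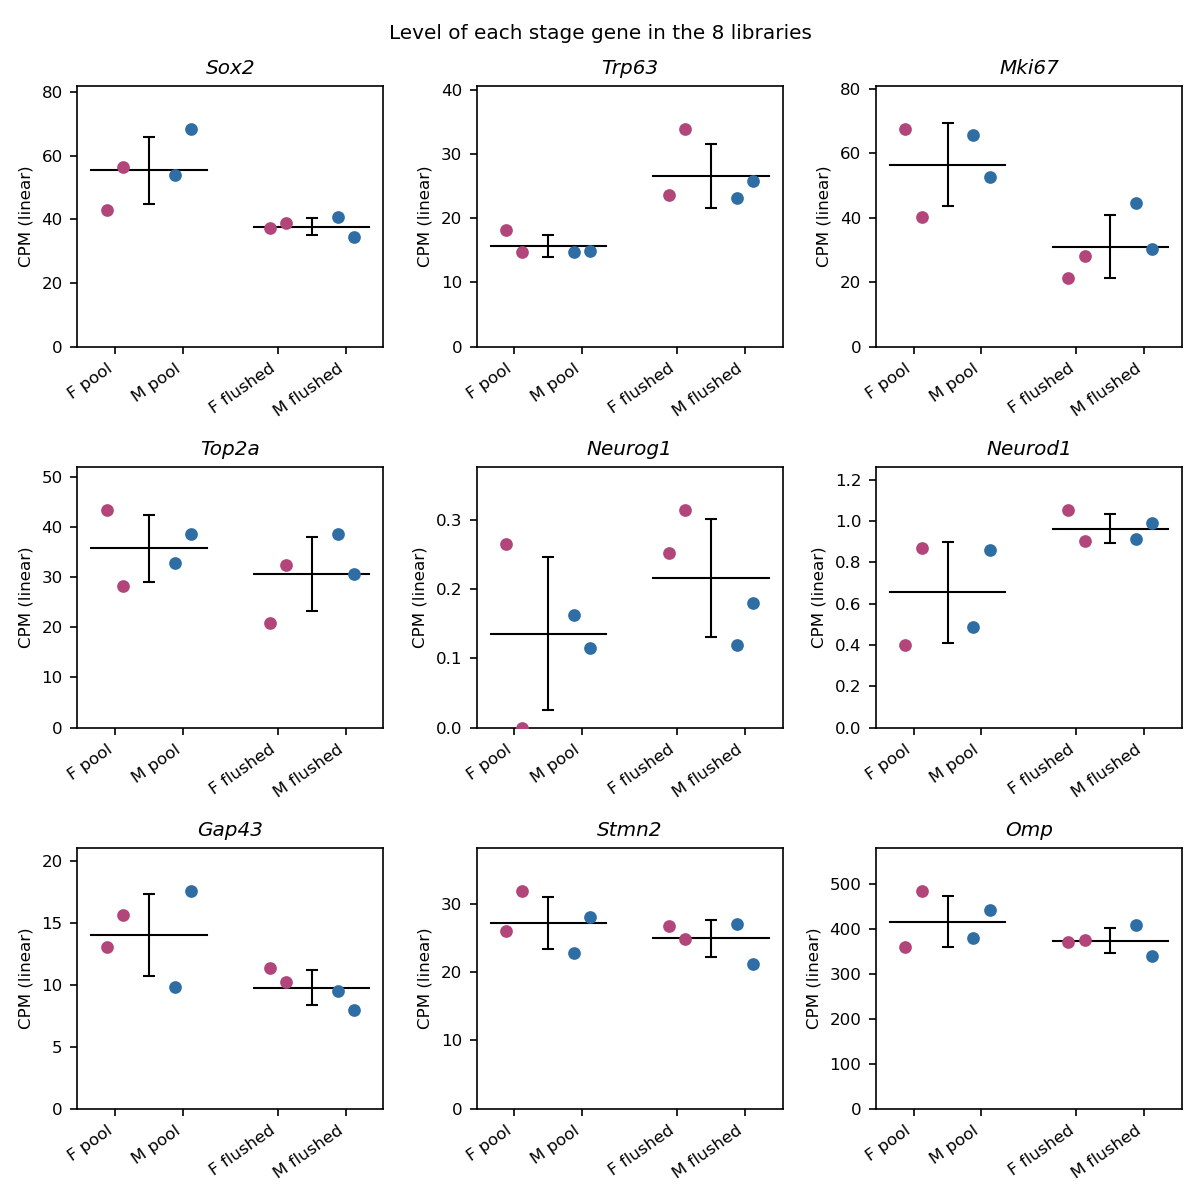
CPM (linear axes from 0, one scale per gene) of the 9 stage genes in the 8 libraries, with female libraries in magenta (F) and male libraries in blue (M). Horizontal lines and bars give mean ± SD over the 4 pools and the 4 flushed libraries, and the 4 flushed libraries lie above the 4 pools for Trp63 and Neurod1 and below them for Sox2.

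Sox2 (ENSMUSG00000074637, chr3:34650405-34652461 in GRCm38, plus strand, a single exon) stood at 42.8 and 56.4 CPM in the female pools, 53.9 and 68.2 in the male pools, 37.2 and 38.7 in the flushed females and 40.6 and 34.3 in the flushed males. Every flushed library lay below every pool, and the flushed libraries were also closer to one another. Sox2 fell from 55.3 ± 10.4 to 37.7 ± 2.64 CPM (SD, n = 4), a log2 difference of -0.54 ± 0.11 (SE, edgeR adjusted p = 0.0032), or 1.46-fold. Within females alone the log2 difference was -0.37 (adjusted p = 0.103) and within males -0.72 (adjusted p = 0.0084), and their difference did not pass the interaction test (log2 -0.32 ± 0.21, adjusted p = 1.00).

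Trp63 (ENSMUSG00000022510, chr16:25683763-25892102, plus strand) went the other way. It stood at 18.2 and 14.8 CPM in the female pools, 14.8 and 14.9 in the male pools, 23.7 and 33.8 in the flushed females and 23.1 and 25.8 in the flushed males. All 4 flushed libraries exceeded all 4 pools, and the pools were nearly level apart from female pool 1. Trp63 rose from 15.7 ± 1.68 to 26.6 ± 4.96 CPM, a log2 difference of 0.76 ± 0.12 (edgeR adjusted p = 0.00057), or 1.69-fold. It passed the test in both sexes alone, with log2 differences of 0.82 in females and 0.71 in males. After the GC content and length correction the difference was 0.49 ± 0.11 (edgeR adjusted p = 0.011). Sox2, Trp63 and Neurod1 were the 3 stage genes whose flushed and pool libraries did not overlap in CPM, against 41.7% of all genes tested.

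The stem and basal cell list holds 13 genes, Sox2 and Trp63 among them, and all 13 were tested. Of these, 2 rose and 7 fell in flushed libraries, with a median log2 difference of -0.46 beside -0.02 over all genes. The other riser was Lgr5, a receptor found on stem cells of several epithelia, named after its values were seen, at 0.59 ± 0.13 (edgeR adjusted p = 0.0038). Krt5, a keratin of basal epithelial cells, had the smallest p of the list and fell from 35.7 ± 5.80 to 17.8 ± 3.19 CPM, or 2.01-fold (edgeR adjusted p = 0.00042). Trp63 and Krt5, which mark the same layer in many epithelia, thus differed in opposite directions between the same libraries. After correction 1 gene of the list was higher (Trp63), 2 were lower (Sox2 and Krt5), Lgr5 was at 0.34 (adjusted p = 0.055), and the median was -0.15. With library sizes taken over mature neuron genes only, 2 rose and 3 fell.

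Other epithelia and supporting cells express some of these genes, and their markers are given beside them. Over all genes, 22.6% were higher and 22.9% lower in flushed libraries, and 10.7% and 11.4% after correction. The gland and sustentacular counts below, as counted, were near these shares. Of 7 gland and duct basal cell markers, 2 fell by edgeR (Krt5 and Krt14, which the stem and basal list also holds). All 7 point estimates were below 0, with a median of -0.76, and after correction 1 was lower (Krt5) and the median was -0.39. They summed to between 2623 and 2837 CPM in pools and between 2187 and 2575 in flushed libraries, most of it Myh11 and Acta2, smooth muscle proteins that gland myoepithelium also makes, which did not pass the test. Of 7 sustentacular cell markers, 1 rose (Ermn, 2.21-fold) and 1 fell (Cbr2, -0.23 ± 0.08). The median of the list was 0.16, and after correction neither gene passed (Ermn at 0.49, adjusted p = 0.32, and Cbr2 at 0.17, adjusted p = 0.086), with a median of 0.31. The summed level, most of it Cbr2, was 730.4 to 857.1 CPM in pools and 638.5 to 805.7 in flushed libraries. Of 8 glial markers, 5 fell, among them Erbb3 (-0.28 ± 0.05) and Sox10 (-0.42 ± 0.09). After correction 2 of the 8 were lower (Fabp7 and Erbb3), Sox10 was at 0.07 (adjusted p = 0.64), and the median moved from -0.27 to -0.05. The glial sum lay between 228.5 and 249.1 CPM in pools and between 187.3 and 216.9 in flushed libraries. None of these markers was at 0 in any library, and their part in the Sox2 and Trp63 differences was not tested.

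Mki67 (ENSMUSG00000031004, chr7:135689784-135716361, minus strand) had the largest difference of the 8 genes tested. It stood at 67.4 and 40.1 CPM in the female pools, 65.8 and 52.7 in the male pools, 21.2 and 28.1 in the flushed females and 44.6 and 30.3 in the flushed males. Male flushed library 1 lay above female pool 2, and the other flushed libraries lay below all pools. Mki67 fell from 56.5 ± 12.8 to 31.0 ± 9.86 CPM, a log2 difference of -0.89 ± 0.19 (edgeR adjusted p = 0.0036), or 1.85-fold. It passed the test within females (-1.11) and within males (-0.67), and their difference did not pass the interaction test (0.47 ± 0.36, adjusted p = 1.00). After correction the difference was -1.03 ± 0.18 (edgeR adjusted p = 0.0035).

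Top2a (ENSMUSG00000020914, chr11:98992943-99024189, minus strand) stood at 43.4 and 28.3 CPM in the female pools, 32.8 and 38.6 in the male pools, 20.9 and 32.4 in the flushed females and 38.7 and 30.7 in the flushed males. The preparations overlapped, and the lowest library was female flushed 2, which was also the lowest for Mki67. The log2 difference was -0.23 ± 0.17 (edgeR adjusted p = 0.29), from 35.8 ± 6.59 to 30.7 ± 7.36 CPM. Top2a has a GC content of 43.4%, near the low end, and after the correction its difference was -0.56 ± 0.16 (edgeR adjusted p = 0.036). Whether Top2a passed the test thus depended on this correction.

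Over the list of 26 dividing-cell genes, which includes Mki67 and Top2a, 12 fell in flushed libraries and 0 rose by edgeR, and the median log2 difference was -0.37. The point estimates were below 0 for 24 of the 26, the exceptions being Bub1 and Ccne2. At an unadjusted p under 0.05 0 were higher and 15 lower, and limma-voom and DESeq2 each gave 11 lower and 0 higher. Over all genes, 10933 of 20601 were at an unadjusted p under 0.05 in either direction. Lower over all genes were 4699 of 20601 by limma-voom and 4048 of 21467 by DESeq2. The smallest p belonged to Mcm3, Mcm2 and Aurkb. Mcm2 and Mcm3 encode subunits of the helicase that opens DNA for replication and fell by log2 differences of -0.76 ± 0.10 and -0.79 ± 0.09, and Aurkb, a mitotic kinase, by -1.04 ± 0.20. After correction 16 of 26 were lower and 0 higher, beside 11.4% of all genes lower, and the median was -0.52. The count lower was 8 without female pool 1, 8 without female flushed 2 and 13 at most with any other library left out. With male pool 1 left out, 1 gene was higher. Within females 9 of 26 were lower, beside 9.55% of all genes, and within males 3 of 26, beside 11.6%.

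**Figure D2:**
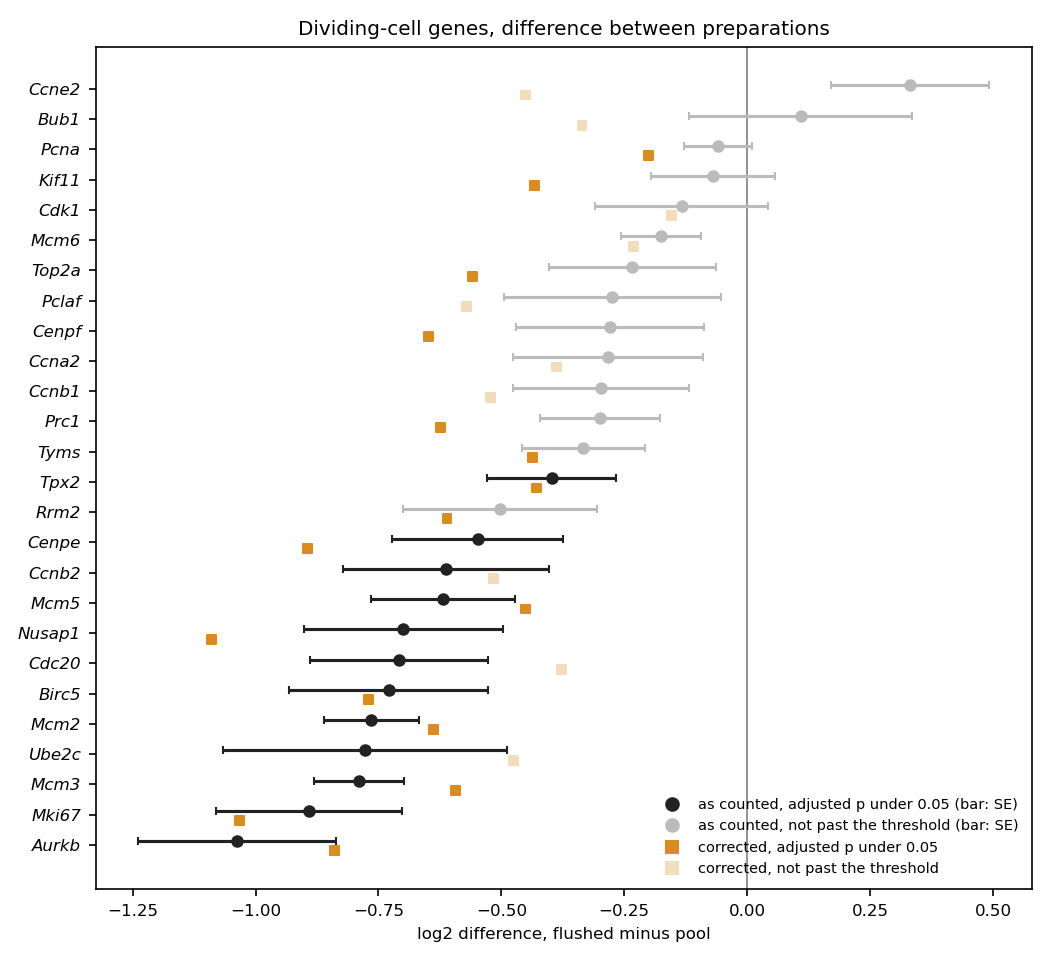
Log2 difference (flushed minus pool) of the 26 dividing-cell genes, with circles for the differences as counted (bars are SE) and squares for those after the GC content and length correction; dark symbols passed an adjusted p of 0.05. All 26 squares lie below 0, and 24 of the 26 circles do.

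Marrow and blood precursors also divide. The markers listed for them, which do not separate dividing precursors from mature blood cells, moved in the same direction. Of 15 such markers, 14 were tested and 11 fell in flushed libraries, with a median log2 difference of -1.67. The smallest p belonged to Alas2, Hbb-bs and Hba-a1, all of the red cell lineage, with log2 differences of -2.32 ± 0.30, -2.84 ± 0.37 and -2.80 ± 0.42. The summed level of all 15 was 9418 to 12460 CPM in female pools, 10570 to 10720 in male pools, 6624 to 6642 in flushed females and 7703 to 9358 in flushed males. Most of that sum was Ltf, a secreted protein that glands also make. The sum of 5 granulocyte precursor markers (Mpo, Elane, Prtn3, Ms4a3 and Camp), taken after their values were seen, was 59.7 and 42.4 CPM in the female pools and 66.5 and 44.8 in the male pools. In the flushed libraries it was 7.44 and 3.33 in females and 37.4 and 11.8 in males. Camp made the largest part of this sum on average, at 31.2 ± 2.16 CPM in pools and 6.79 ± 7.52 in flushed libraries. After correction 7 of the 14 were lower and the median was -1.50. Gata1 and Rag1 were at 0 in at least 1 library, and Vpreb1 did not exceed 0.373 CPM. The part of these cells in the Mki67 difference was not tested.

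Of 11 cartilage and bone markers, 8 fell, led by Dmp1 (-1.75 ± 0.10), Alpl (-0.98 ± 0.06) and Col1a1 (-1.30 ± 0.09). After correction 5 were lower and the median was -0.52. They summed to between 15810 and 21830 CPM in pools and between 6876 and 9391 in flushed libraries. Their part in the differences of the stage genes was likewise not tested.

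Neurog1 (ENSMUSG00000048904, chr13:56250505-56252163, minus strand, a single exon) was counted 6 and 0 times in the female pools, 3 and 2 times in the male pools, 6 and 8 times in the flushed females and 3 and 4 times in the flushed males. The highest level was 0.313 CPM, and the count of 0 in female pool 2 allows up to 3 counts, or 0.153 CPM. No difference was detectable at this depth. Neurod1 (ENSMUSG00000034701, chr2:79452521-79456751, minus strand) was counted between 9 and 25 times per library. It stood at 0.399 and 0.869 CPM in the female pools, 0.486 and 0.861 in the male pools, 1.05 and 0.901 in the flushed females and 0.912 and 0.990 in the flushed males. Every flushed library lay above every pool, by a small margin for a pool of each sex. The log2 difference of Neurod1 was 0.57 ± 0.29 (edgeR adjusted p = 0.14) and did not pass the test.

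The neuronal progenitor list holds 19 genes, of which 14 were tested. Of these, 3 rose (Sox4, Sox11 and Tfdp2) and 4 fell (Dll4, Hes6, Insm1 and Gadd45g), shares near those of all genes (22.6% higher and 22.9% lower). The median log2 difference was -0.09. Dll4, a Notch ligand that blood vessel cells also express, fell by -0.99 ± 0.15 on the log2 scale, Hes6, a factor of differentiating neurons, by -0.63 ± 0.10, and Insm1, a zinc finger factor of dividing neuronal progenitors, by -0.74 ± 0.13. After correction Dll4 was lower and Sox4 and Nhlh1 were higher, beside 11.4% of all genes lower and 10.7% higher. Hes6 and Insm1 did not pass the corrected test, and the median was 0.14. The genes not tested included Neurog1, Neurod2, Neurod4 and Dll3, and Neurod2 and Neurod4 had 0 counts in every pool. Neurog1 and Neurod1 were therefore close to the limit of these libraries, while Sox2, Mki67 and Top2a of earlier steps and Gap43 and Stmn2 of later steps were each counted at least 176 times in every library.

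Gap43 (ENSMUSG00000047261, chr16:42248442-42340651, minus strand) stood at 13.1 and 15.6 CPM in the female pools, 9.84 and 17.5 in the male pools, 11.4 and 10.2 in the flushed females and 9.51 and 7.92 in the flushed males. Male pool 1 lay within the range of the flushed libraries, and the other pools lay above all of them. Gap43 fell from 14.0 ± 3.32 to 9.75 ± 1.44 CPM, a log2 difference of -0.52 ± 0.16 (edgeR adjusted p = 0.024), or 1.44-fold. This call rested on single libraries: the adjusted p was 0.066 without male pool 2, 0.064 without female pool 2 and 0.074 without male flushed 3. After the correction the difference was -0.41 ± 0.16 (edgeR adjusted p = 0.095), and it passed in neither sex alone. Within females 2 stage genes differed (Trp63 and Mki67), beside 23.4% of all genes, and within males 3 (these and Sox2), beside 24.2%.

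Stmn2 (ENSMUSG00000027500, chr3:8509360-8561606, plus strand) stood at 26.1 and 31.9 CPM in the female pools, 22.9 and 28.2 in the male pools, 26.8 and 24.9 in the flushed females and 27.2 and 21.2 in the flushed males. The preparations overlapped, and the log2 difference was -0.12 ± 0.10 (edgeR adjusted p = 0.37). Stmn2 has the lowest GC content of the stage genes tested, 41.3%, and after the correction its difference was -0.57 ± 0.12 (edgeR adjusted p = 0.0079).

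Of the 17 immature neuron genes, Gap43 and Stmn2 included, 1 rose and 7 fell, with point estimates below 0 for 16 and a median log2 difference of -0.25. The riser was Dcx, a microtubule-associated protein of migrating and newly born neurons, at 0.91 ± 0.10 (edgeR adjusted p = 8.8e-05), from 11.97 ± 1.27 to 22.7 ± 3.26 CPM. Tmsb10, an actin-binding peptide that many immature and blood cells express, fell by -1.18 ± 0.10 on the log2 scale, and Marcksl1, an actin regulator of growing neurites, by -0.81 ± 0.11. After correction Dcx remained higher at 0.35 (adjusted p = 0.014), 4 genes were lower, and the median was -0.08.

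Omp (ENSMUSG00000074006, chr7:98143359-98145502, minus strand, a single exon) stood at 360.8 and 484.4 CPM in the female pools, 379.6 and 443.6 in the male pools, 372.5 and 376.7 in the flushed females and 409.3 and 340.9 in the flushed males. The preparations overlapped, and the highest library was female pool 2. The log2 difference was -0.15 ± 0.10 (edgeR adjusted p = 0.23). After the correction it was 0.22 ± 0.08 (edgeR adjusted p = 0.082), so the sign changed with the processing and neither value passed the test. Omp has the highest GC content of the stage genes tested, 57.0%.

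Among 12 mature vomeronasal neuron genes 11 were tested, 3 rose (Syt1, Slc17a6 and Snap25) and 2 fell (Gnai2 and Ano1), shares near those of all genes (22.6% higher and 22.9% lower). The median log2 difference was -0.15 and turned to 0.10 after correction. Syt1 and Snap25 encode proteins of synaptic vesicle release and Slc17a6 a vesicular glutamate transporter. They rose by log2 differences of 0.51 ± 0.06, 0.50 ± 0.08 and 0.43 ± 0.06, and after correction Syt1 alone of the list differed, Slc17a6 being at 0.10 and Snap25 at -0.15. Trpc2, the channel gene that defines vomeronasal signal transduction, was at 0 in all 8 libraries; its exons are covered by the read-through gene Xntrpc, and the counting left out reads over more than 1 gene. Xntrpc was counted at 22.5 to 31.2 CPM. Gnai2 and Gnao1, the G protein subunits of the apical and basal neuron layers, averaged 199.8 ± 24.9 and 57.8 ± 2.11 CPM in pools. Omp is shared with the main olfactory epithelium, whose 7 other markers summed to 190.0 to 210.5 CPM in pools and 184.1 to 241.3 in flushed libraries. Most of that sum was Rtp1 and Adcy3. Of those 7, Rtp1 was higher (0.26 ± 0.07) and Adcy3 lower (-0.38 ± 0.09) in flushed libraries. After correction Rtp1 remained higher at 0.25 (edgeR adjusted p = 0.046) and Adcy3 was at -0.07 (edgeR adjusted p = 0.59). Cnga2, the channel subunit of main olfactory neurons, ranged from 0.900 to 9.79 CPM between libraries and did not pass the test (0.89 ± 0.64).

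Among the lineage transcription factors, which act along the whole path from progenitor to mature neuron, Ebf2, an olfactory lineage factor, rose by a log2 difference of 0.30 ± 0.06 (edgeR adjusted p = 0.0021). Its corrected log2 difference was 0.09 (edgeR adjusted p = 0.34).

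**Figure D3:**
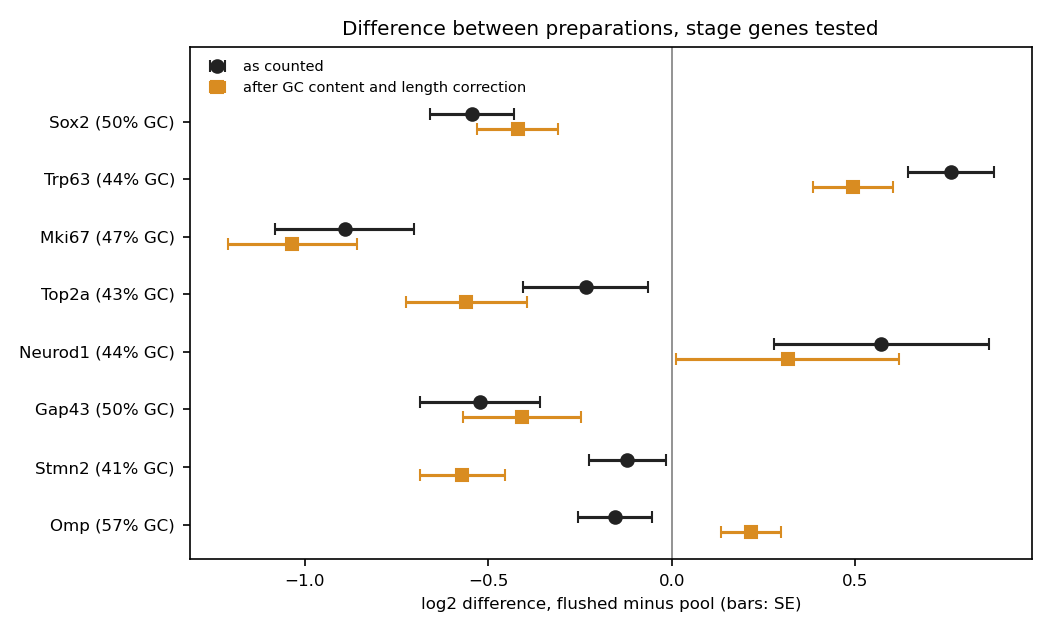
Log2 difference (flushed minus pool) of the 8 stage genes tested, in stage order from top to bottom, with circles as counted and squares after the GC content and length correction (bars are SE). Trp63 and Neurod1 lie above 0 and Sox2, Mki67, Top2a, Gap43 and Stmn2 below 0 under both, while Omp changes sign.

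The ratio of each stage gene to Omp does not depend on library size. Sox2 amounted to 12.1 to 16.03% of the Omp RPKM in pools and 10.3 to 10.7% in flushed libraries. Mki67 amounted to 1.77 to 3.98% and 1.21 to 2.33%, and Gap43 to 3.66 to 5.57% and 3.28 to 4.30%. Trp63 amounted to 0.780 to 1.29% in pools and 1.44 to 2.30% in flushed libraries. The log2 ratio differed between preparations by -0.39 for Sox2, 0.90 for Trp63 and 0.76 for Neurod1, and the libraries of the 2 preparations did not overlap for these 3 genes. Each gave an exact two-sided permutation p of 0.0286, the smallest that 4 libraries against 4 can give. Adjusted over the 16 tests (8 genes by preparation and by sex), none passed: these 3 had an adjusted p of 0.152. After the GC content and length correction the difference of the log2 ratio was -0.63 for Sox2, 0.26 for Trp63 and 0.14 for Neurod1, with adjusted exact permutation p of 0.1, 0.4 and 0.727. Neurog1, too low to be tested, was left out of the corrected ratios. In the family as counted, an adjusted p under 0.05 would have needed 10 of the 16 tests at the smallest p. As counted, the Stmn2 ratio to Omp lay between 2.31 and 2.77% in pools and between 2.38 and 2.76% in flushed libraries, a log2 difference of 0.03 (exact permutation p = 0.714). That ratio also depended on the correction, after which Stmn2 itself was at -0.57 and Omp at 0.22 (log2, flushed minus pool). Mki67, Top2a and Gap43 were then at -1.03, -0.56 and -0.41, so their distance from Omp widened as well.

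**Figure D4:**
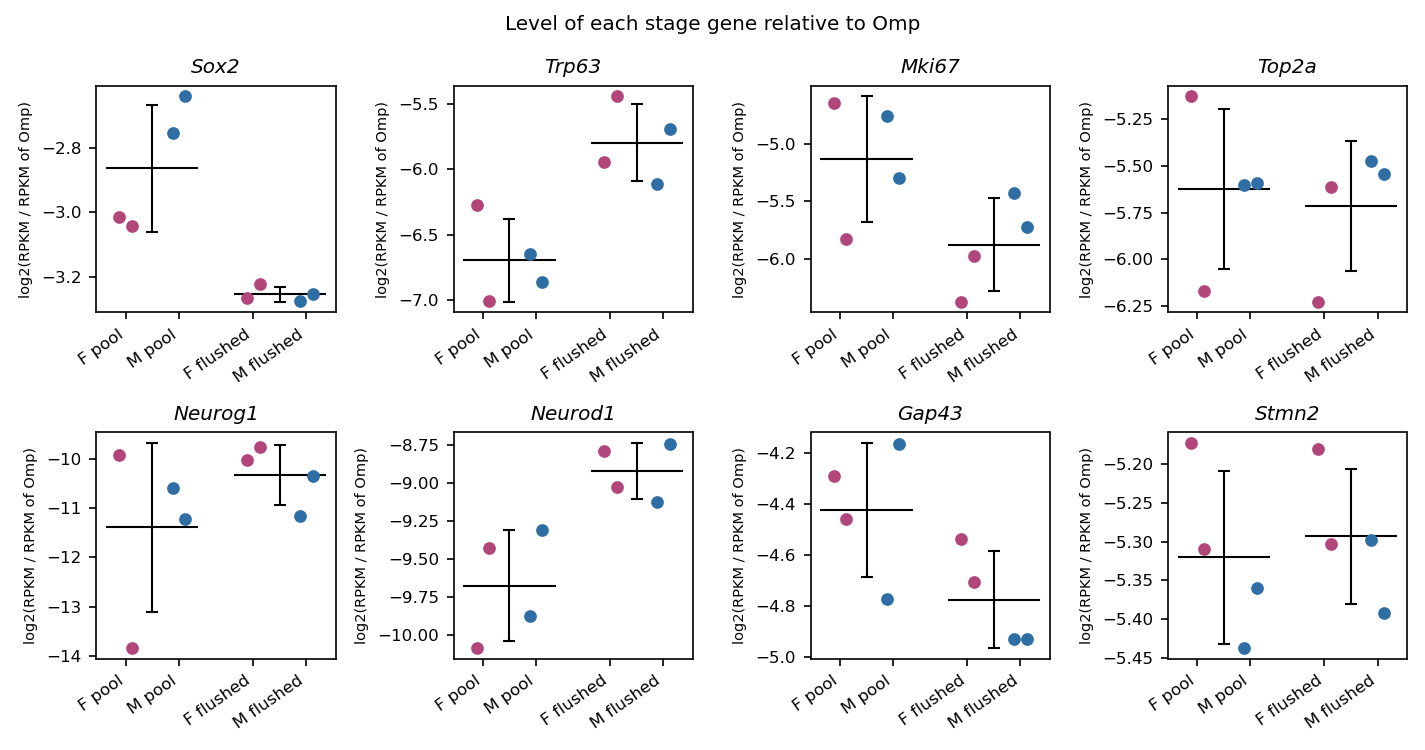
Log2 of the RPKM of each stage gene over that of Omp in the 8 libraries, with 0.5 added to each count, female libraries in magenta (F) and male in blue (M); lines and bars are mean ± SD over 4 libraries, and each panel has its own scale. The flushed libraries lie below all pools for Sox2 and above all pools for Trp63 and Neurod1, and the other 5 genes overlap.

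Between the sexes, 24 of 20601 genes (0.116%) differed by edgeR. None of the 8 stage genes tested did, with 0 also at an unadjusted p under 0.05, 0 by DESeq2 and 0 by limma-voom. The log2 differences (male minus female) ran from -0.20 for Trp63 to 0.37 for Mki67, and the lowest adjusted p was 0.683, for Mki67. For Mki67 the levels were 39.2 ± 20.4 CPM in females and 48.4 ± 14.9 in males (SD, n = 4), which overlap widely. With no filter on low counts Mki67 passed the test (log2 0.36, edgeR adjusted p = 9.4e-05), and this call appeared under no other setting. Omp differed by -0.02 ± 0.10 (edgeR adjusted p = 0.99), at 398.6 ± 57.6 CPM in females and 393.3 ± 43.6 in males. Of 93 genes tested in the 6 neurogenesis lists, 0 differed between the sexes by edgeR, 9 did at an unadjusted p under 0.05, and 2 did by DESeq2 (Itgb4 and Sox9). Over all genes, 1640 of 20601 were at an unadjusted edgeR p under 0.05 by sex, a share near that of the lists. By DESeq2, 123 of 19626 genes differed by sex. No stage gene showed a difference between preparations that itself differed between the sexes by edgeR, with 0 at an unadjusted p under 0.05 and 0 by DESeq2 or limma-voom.

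For each stage gene, the 3 protein-coding genes with the most similar profile were found among 13942 genes, by the root-mean-square difference of log2(CPM + 0.5) over the 8 libraries after centring. Top2a was nearest to A2m (0.119), Ccna2 (0.138) and Cdk1 (0.143), and Ccna2 and Cdk1 are a cyclin and a kinase of the dividing-cell list. Mki67 was nearest to Treml2 (0.151), Nos1 (0.204) and Ostn (0.206), none of which is in that list. Sox2 was nearest to Hes6 (0.0686), Nyap1 (0.0755) and Pde6d (0.0790), and Trp63 to Spata1 (0.0857), Fsd1l (0.108) and Hspa4l (0.115). Gap43 was nearest to Grcc10 (0.0526), Dand5 (0.0675) and Ddit3 (0.0960), and Stmn2 to Apmap (0.0585), Sephs2 (0.0588) and Ptprr (0.0591). Omp was nearest to Dirc2 (0.0351), Rhot2 (0.0448) and Trip6 (0.0459), and Neurod1 to Klf8 (0.0975), Gpr12 (0.0988) and Rnf182 (0.103). Neurog1, at a few counts, was nearest to Lemd1 (0.0877), Trim7 (0.0911) and Ptprz1 (0.0957). These profiles share library depth and GC content effects, and likeness over 8 libraries is a description only.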

How the data were processed

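Per the submitters' processing notes, STAR 2.7.1a aligned the reads of the 8 libraries and featureCounts 1.6.5 counted them. Per the file headers, the authors' files hold expected counts on GRCm38: a read with several alignments adds a fraction to each, only the reverse strand counts, and reads touching more than 1 gene are left out. Exons shared with another gene on the same strand make up 1.35% of Top2a and 7.37% of Neurod1, so those genes are undercounted.

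Counts were rounded and tested with edgeR 4.0.16 (R 4.3.3): TMM scaling, filterByExpr on the 4 groups, quasi-likelihood F test, sex and preparation as additive terms, an interaction in a further fit, and Benjamini-Hochberg adjustment over all 20601 genes. Each SE was obtained as the log2 difference over the square root of F, without sign. CPM and RPKM use unrounded counts. Ratios to Omp were compared by exact permutation (scipy 1.17.1). The GC content and length correction, a loess offset per library fitted on 17792 genes, was chosen after seeing the data. Scripts were tested on simulated data. Alternatives were DESeq2 1.42.0, limma-voom (limma 3.58.1), other scalings, no filter and each library left out.

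The stage genes, gene lists and tests were chosen with earlier results of these data known. Genes named from a list are the 3 with the smallest p among those past the preparation test and the 2 past the sex test; some of these are not reported here, and others are named where 5 or fewer were counted or where their values were seen to matter. The labels give each replicate as its own mouse or pool, and without molecular identifiers PCR copies are counted as reads.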

Additional observations from a re-analysis of the deposited data

Results flagged for a closer look

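In female pool 1 Trp63 stood at 18.2 CPM, apart from the other 3 pools, of which the next highest was at 14.9. In female pool 2 Omp stood at 484.4 CPM, apart from the other 3 female libraries, of which the next highest was at 376.7. These 2 were the sets past Dixon's 95% critical value among 36 examined (9 genes in 4 sets of 4 libraries by preparation or by sex), and chance flags about 1 set in 20.

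Of the marker lists, 3 red cell lineage genes showed a difference between preparations that itself differed between the sexes by edgeR's interaction test. The log2 interaction was 1.84 for Alas2 (adjusted p = 0.0063), 2.39 for Hba-a1 (adjusted p = 0.00034) and 2.13 for Hbb-bs (adjusted p = 0.00064), the fall in flushed libraries being larger in females.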

How the results depend on the processing

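The 4 stage genes past the preparation test were 4 with DESeq2's size factors, mature neuron scaling, DESeq2 and limma-voom, 5 with no filter and 5 after the GC content and length correction, 3 to 4 with 1 library left out, 3 within males and 2 within females. Mki67 and Trp63 passed under all 16 alternatives and Sox2 under 15. After the correction Top2a and Stmn2 passed and Gap43 did not. The genes called by preparation numbered 4548 after the correction, 4703 within females and 4770 within males. By sex, 784 genes and 1 stage gene were called with no filter, 123 genes by DESeq2, 10 with mature neuron scaling, 5 within pools and 8 to 25 with 1 library left out. The interaction gave 10 genes, 263 with no filter, 27 by DESeq2 and 4 to 18 with 1 library left out. The cause was not tested.

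Among the stage genes and their ratios, sign changes occurred only in differences that passed no test. Among list genes named above, Snap25, Cbr2 and Sox10 passed as counted and changed sign after the correction, to -0.15, 0.17 and 0.07. By preparation, Omp was at 0.22 after the correction, and the Stmn2 ratio at -0.10 to Xntrpc and -0.78 after the correction. By sex, Omp was at 0.027 after the correction, Top2a at -0.0085 within pools, and Sox2 at -0.025 and Neurod1 at -0.042 within flushed libraries. With 1 library left out, the ranges by sex were -0.096 to 0.081 for Omp, -0.16 to 0.20 for Neurod1, and, as ratios to Omp, -0.18 to 0.27 for Neurod1, -0.92 to 0.44 for Neurog1 and -0.44 to 0.080 for Trp63. By preparation the ratio ranges were -0.013 to 0.076 for Stmn2 and -0.27 to 0.080 for Top2a.

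The planned ratio to Trpc2 could not be run, since Trpc2 was at 0. Permuting only within the other factor cannot give a p under 0.0556. The titles of the male and female pools share mouse numbers. With that number as a block, an alternative chosen after seeing the data, 63 genes and 0 stage genes were called by sex within pools, against 5 and 0 without it. The deviations of same-numbered pools correlated at 0.225 over 19376 genes, and nothing in the labels says that a shared number marks a shared batch or litter. The flushed sexes share 1 number and gave no such fit. Counts of 0 to 8 limit Neurog1.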
